A study of Mus musculus with 62 samples.

Results

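Expression of 8 complement genes was examined in all 62 RNA sequencing libraries of the study: *C1qa*, *C1qb*, *C1qc*, *C2*, *C3*, *C4b*, *Cfb* and *Cfd*, the gene of adipsin. They were taken by name from the 48795 genes of the count table. The set was chosen by names and by measured values of these same libraries, the *C2* counts of subcutaneous fat, which were lower in KO mice, so KO and WT subcutaneous fat are described below without a test. The libraries came from visceral adipose (gonadal fat, VAT), subcutaneous adipose (inguinal fat, SAT) and liver of WT and *Fam13a* KO mice. The KO is a whole-body deletion made from ES cells with a floxed exon 5, and both genotypes were on a C57BL6 background. Males were sampled on chow (18% of calories from fat) and on a high-fat diet (HFD, 45% of calories from fat) in all 3 tissues, and females on HFD in VAT and SAT only. HFD was fed from 8 weeks of age for 14 weeks, until 22 weeks, and the age of the mice on chow is not given in the sources used here. There were 4 libraries for every combination of these factors, apart from WT females, with 3 in each depot. The labels do not link the tissues of 1 mouse, nor say whether each library is from a separate mouse, so p-values measure the spread between these libraries.

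Complement is a cascade of plasma proteins that tags particles for uptake, attracts leukocytes and can lyse cells. In the classical pathway C1q, built of chains from *C1qa*, *C1qb* and *C1qc*, binds a target and its proteases cleave C4 and C2, which form an enzyme that cleaves C3. In the alternative pathway factor B, the product of *Cfb*, binds C3b and is cleaved by factor D, the product of *Cfd*. Macrophages are the best known source of C1q, the liver makes most circulating C3 and C4, and adipocytes are the main source of adipsin.

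The 3 C1q genes lie side by side on chromosome 4 (GRCm38, minus strand), *C1qb* from 136880129 to 136886187, *C1qc* from 136889804 to 136893065 and *C1qa* from 136895917 to 136898803. *C4b* (34728380 to 34743882), *Cfb* (34856374 to 34862518) and *C2* (34862604 to 34898265) lie on the minus strand of chromosome 17, with 85 bases between *Cfb* and *C2*. *C3* is farther along the minus strand of the same chromosome (57203970 to 57228136), and *Cfd* is on the plus strand of chromosome 10 (79890853 to 79892655). RefSeq (GRCm38.p6) gave promoters for 4 of the 8 genes. Its start of *C1qc* lies within the span given above, which is from GENCODE, so part of the bases shown for *C1qc* lies inside that span. The 250 bases before the start are shown 5′ to 3′ for these 4, since *C1qb* and *C1qc* changed together while *C3* and *Cfd* moved apart in VAT and liver. Capitals mark the only matches to 4 motifs, searched on both strands in windows from 250 bases before to 50 bases after the start.
C1qb (chr4:136886201-136886450, minus strand): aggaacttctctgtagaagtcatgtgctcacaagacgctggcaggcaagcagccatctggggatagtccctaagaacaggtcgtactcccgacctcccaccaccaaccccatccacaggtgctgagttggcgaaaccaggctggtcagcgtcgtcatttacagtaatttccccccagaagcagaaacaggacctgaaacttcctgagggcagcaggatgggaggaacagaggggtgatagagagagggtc
C1qc (chr4:136892915-136893164, minus strand): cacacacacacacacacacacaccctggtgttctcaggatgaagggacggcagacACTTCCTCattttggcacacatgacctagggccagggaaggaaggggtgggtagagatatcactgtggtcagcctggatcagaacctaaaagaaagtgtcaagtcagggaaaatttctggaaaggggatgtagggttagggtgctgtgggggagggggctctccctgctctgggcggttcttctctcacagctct
C3 (chr17:57228137-57228386, minus strand): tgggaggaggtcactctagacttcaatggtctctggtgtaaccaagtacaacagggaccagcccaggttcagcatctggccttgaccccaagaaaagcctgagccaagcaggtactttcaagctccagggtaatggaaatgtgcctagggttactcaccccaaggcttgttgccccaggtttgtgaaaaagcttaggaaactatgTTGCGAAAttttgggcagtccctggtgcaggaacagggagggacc
Cfd (chr10:79890603-79890852, plus strand): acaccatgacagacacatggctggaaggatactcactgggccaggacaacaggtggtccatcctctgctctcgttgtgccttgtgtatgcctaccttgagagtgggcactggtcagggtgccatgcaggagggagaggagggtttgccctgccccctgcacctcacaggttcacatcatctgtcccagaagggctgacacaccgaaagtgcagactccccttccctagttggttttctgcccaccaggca

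The capitals in *C1qc* are the reverse complement of GAGGAAGT, a core bound by PU.1, a factor of macrophages, which 3.2% of all 32851 promoter windows hold. Those in *C3* match TTGCNNAA, a site of C/EBP factors, which 10.8% of the windows hold. The STAT motif TTCNNNGAA (8.3% of the windows) and the direct repeat DR1 bound by PPAR with RXR (0.0396%) were in none of the 4 windows. These matches describe letters and do not show binding.

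Library totals ran from 4959783 to 28723319 gene counts (median 21694089), and nuclear ribosomal RNA took 0.0127% to 75.4% of them (median 1.06%). *Fam13a* had a lower mean in KO than in WT in 8 of 8 groups of sex, diet and tissue, but the genotypes overlapped in 5 of the 8, for example in VAT of males on HFD (10.9 to 22.8 CPM in KO and 12.0 to 27.3 CPM in WT). These counts cover the whole gene, not the deleted exon alone. Chow and HFD libraries shared 0 lanes, and within each depot females and males shared 0 lanes, so lane cannot be told apart from diet or sex. Each tissue on chow had a lane to itself, and in males on HFD the tissues were mostly on different lanes. Lane can therefore hardly be told apart from tissue either. Adipocyte markers summed to between 4838 and 17943 CPM in fat and between 83.4 and 198 CPM in liver. Hepatocyte markers summed to at least 102637 CPM in liver and at most 3403 CPM in fat. In male VAT on chow, 2 libraries were high in epididymis markers (7872 CPM in 1 KO and 4910 CPM in 1 WT library). In male SAT, 6 of 16 libraries were high in lymph node markers, among them all 4 WT libraries on chow (302 to 730 CPM).

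Levels of different genes were compared as TPM, which divides counts by gene length. In fat on chow, *Cfd* stood far above the others, at 9378 ± 2786 TPM in SAT and 9174 ± 3650 TPM in VAT (SD, n = 8 males each). *C3* followed with 517 ± 146 TPM in SAT and 491 ± 218 TPM in VAT, and *C4b* with 457 ± 148 and 347 ± 129 TPM, and the ranges of these 2 genes overlapped in both depots. The C1q genes had between 81.4 and 184 TPM on average, *C2* had 11.6 ± 2.66 TPM in SAT and 22.1 ± 11.8 TPM in VAT, and *Cfb* was lowest at 1.40 ± 0.626 and 1.67 ± 0.713 TPM (SD, n = 8).

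On HFD the order in fat was different. In VAT, *C3* had 865 ± 191 TPM, *C1qb* 755 ± 219 TPM and *Cfd* 696 ± 284 TPM (SD, n = 8), with overlapping ranges. In SAT, *Cfd* was still first at 1792 ± 446 TPM, above *C4b* at 363 ± 41.0 TPM (SD, n = 8) with no overlap. In liver on chow, *C3* came first at 2693 ± 858 TPM, then *C4b* at 418 ± 105 TPM, with no overlap between them, and *Cfd* was last at 1.08 ± 1.55 TPM (SD, n = 8). In liver on HFD, *Cfd* rose to 17.2 ± 8.39 TPM (SD, n = 8), which overlapped with *C1qc* above it and *C2* below it.

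The levels of *Cfb*, *C2* and *C4b* are uncertain. Of the 2825 exon bases of *Cfb*, 79.5% overlap the readthrough gene *Gm20547* on the same strand, and so do 42.8% of the 3872 exon bases of *C2*. Reads that fall in 2 genes are left out by the counting used, and *Gm20547* itself has 0 counts in every library. Over the unshared bases alone, *Cfb* came to 18.6 ± 3.79 TPM in liver on HFD and 6.82 ± 3.05 TPM in SAT on chow, and *C2* to 38.7 ± 20.6 TPM in VAT on chow (SD, n = 8). *C4b* shares 34.6% of its 50-base stretches with its near copy *C4a*.

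**Figure D1:**
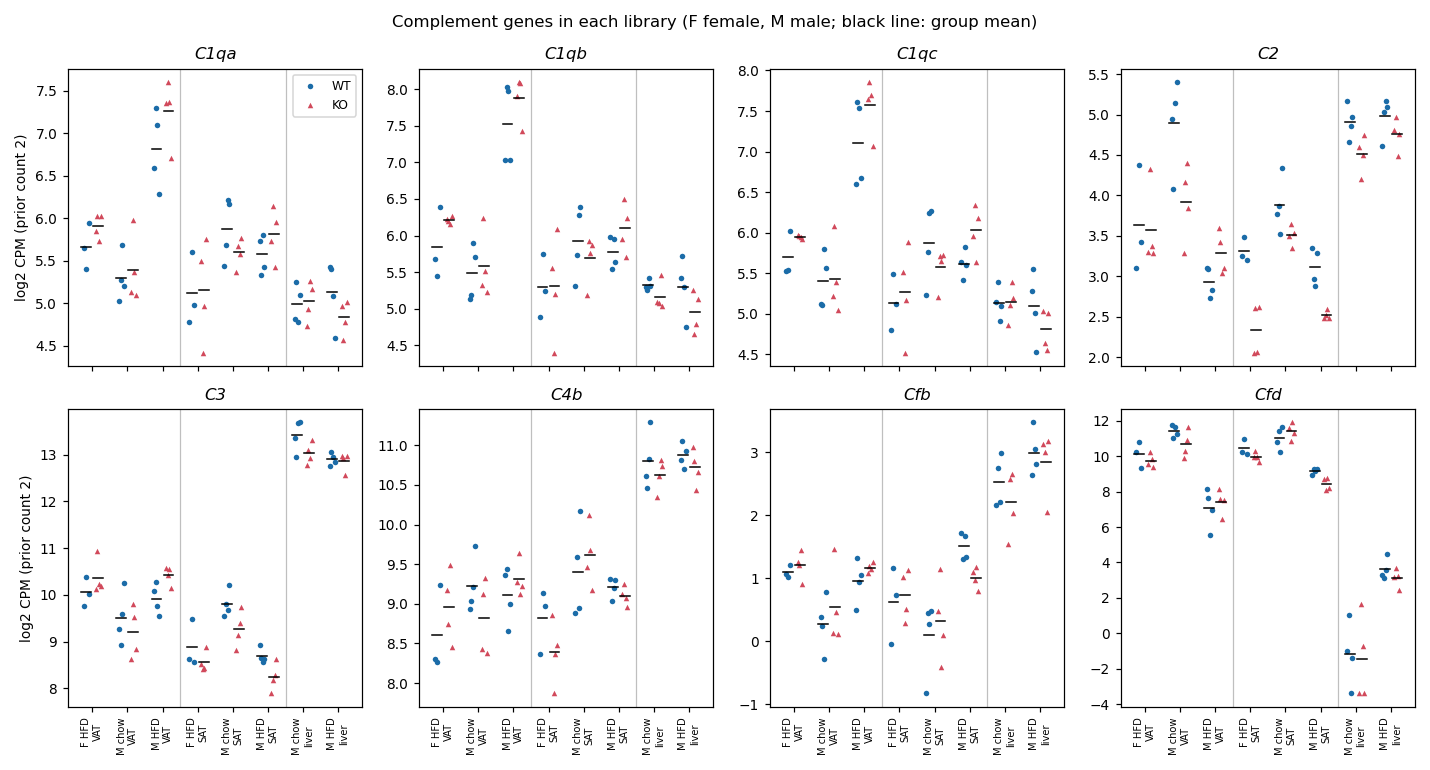
Log2 CPM of each of the 8 genes (prior count 2) in each of the 62 libraries, by sex, diet and tissue, with WT as blue circles, KO as red triangles and the mean of the log2 values of each group as a black line. The C1q genes were highest in VAT of males on HFD, *C3*, *C4b* and *Cfb* in liver, and *Cfd* in fat.

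Liver was compared with the mean of both fat depots in the 48 male libraries, to separate hepatic from adipose expression. All 8 genes passed an FDR of 10% in edgeR's quasi-likelihood test, where 85.3% of 19424 genes did, 4 of them higher and 4 lower in liver (37.4% and 47.9% of all genes). *C3*, the protein on which all pathways converge, was 11.9 times higher in liver (log2 3.57, SE 0.17), with no overlap between liver and fat libraries. *Cfb* was 3.92 times higher (log2 1.97, SE 0.14), *C4b* 2.83 times (log2 1.50, SE 0.11) and *C2* 2.46 times (log2 1.30, SE 0.14). *Cfd* was 101 times lower in liver (log2 -6.65, SE 0.72, and -8.45 by limma-voom), and *C1qa*, *C1qb* and *C1qc* were lower by 2.02, 2.19 and 2.12 times. The median of all genes in this comparison was -0.20 on the log2 scale. These fold changes use TMM library sizes, which TPM does not. By TPM on chow, *C2* averaged 9.62 in liver, 11.6 in SAT and 22.1 in VAT, and *C4b* 418, 457 and 347. On HFD, *C2* averaged 10.7, 6.63 and 8.46 TPM in the same order, and *C4b* 444, 363 and 399. By TPM on chow, *C2* and *C4b* were thus not higher in liver than in both depots, while *C3* and *Cfb* were, on either diet. With at least 10 counts required in every library, *Cfb* and *Cfd* were not tested and the other 6 genes kept their call.

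The C1q genes were higher on HFD than on chow in VAT of males. *C1qb* ranged from 34.9 to 75.8 CPM on chow (median 42.8, n = 8) and from 131 to 274 CPM on HFD (median 247, n = 8). *C1qa* ranged from 32.5 to 63.2 CPM on chow (median 37.8) and from 78.3 to 194 CPM on HFD (median 147). *C1qc* ranged from 32.9 to 67.6 CPM on chow (median 39.4) and from 97.1 to 232 CPM on HFD (median 191). Every HFD library was above every chow library for each of the 3 genes. The share of all genes separated in this way was not counted, here or in the other comparisons of diets, sexes and tissues. The fold changes were 3.20 for *C1qa* (log2 1.68, SE 0.18), 4.43 for *C1qb* (log2 2.15, SE 0.20) and 3.75 for *C1qc* (log2 1.91, SE 0.20), and the largest adjusted p was 1.57e-05 (edgeR). In this comparison 7 of the 8 complement genes passed the test, 5 higher and 2 lower on HFD, where 44.2% of 17330 genes passed, 21.0% higher and 23.2% lower.

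The same genes did not pass the test in SAT or liver. In SAT the log2 fold changes were -0.06 for *C1qa* (95% interval -0.35 to 0.22), 0.09 for *C1qb* (-0.27 to 0.44) and 0.05 for *C1qc* (-0.29 to 0.40). In liver they were -0.07 (-0.32 to 0.17), -0.15 (-0.38 to 0.09) and -0.21 (-0.45 to 0.02) in the same order. The difference between depots was itself tested as an interaction, in which 6 of the 8 genes passed, 5 with a larger and 1 with a smaller log2 change in VAT, where 35.1% of 18561 genes passed, 17.5% and 17.6% in these directions. The effect of diet was larger in VAT than in SAT by 1.78 for *C1qa* (SE 0.24), 2.09 for *C1qb* (SE 0.27) and 1.89 for *C1qc* (SE 0.27) on the log2 scale, with adjusted p of at most 2.88e-05 (edgeR). Without the 6 SAT libraries high in lymph node markers, *C1qc* was called higher on HFD in SAT (log2 0.48, adjusted p = 0.0719 from edgeR). These 6 included all WT libraries on chow, so that fit takes its diet difference from KO libraries only. Over all SAT libraries, the mean log2 difference of *C1qc* between diets was 0.45 in KO and -0.26 in WT.

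The 3 C1q genes kept close to each other. *C1qb* had between 1.06 and 1.18 times the CPM of *C1qa* in the median of 5 of the 6 combinations of tissue and diet in males, and 1.65 times in VAT on HFD (1.36 to 1.84, n = 8). *C1qb* was above *C1qc* by a median of 1.30 times in VAT on HFD (1.18 to 1.36) and by 1.08 times in VAT on chow (1.01 to 1.14), and these ranges did not overlap.

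Macrophage markers rose with the C1q genes in VAT, and fell in liver, where the C1q genes did not pass. In VAT, 9 of 11 markers were higher on HFD and 1 lower, with a median log2 fold change of 1.90, against -0.04 for all genes, and 6 of 6 markers of lipid-associated macrophages were higher, with a median of 3.45. In SAT, 2 of the 11 markers were higher and 1 lower, with a median of -0.05, and 5 of the 6 were higher, with a median of 1.30. In liver, 0 of the 11 were higher and 8 lower, with a median of -0.34. Of the 6, 2 were higher and 1 lower there, with a median of 0.11. The 11 markers summed to between 500 and 1532 CPM on chow and to between 1745 and 4008 CPM on HFD in VAT, and to between 570 and 1266 and between 688 and 1389 CPM in SAT. The summed C1q level was between 13.5% and 20.9% of the macrophage marker sum in VAT on chow and between 14.4% and 21.1% in VAT on HFD. It was between 18.1% and 21.6% in liver on chow and between 20.3% and 27.9% in liver on HFD. With the macrophage marker score as a covariate, the log2 fold changes on HFD in VAT were 0.57 for *C1qa*, 0.66 for *C1qb* and 0.45 for *C1qc*, none of which passed (smallest adjusted p = 0.120 from edgeR), and 2.56% of all genes passed. In bulk tissue, more macrophages and more C1q RNA per macrophage cannot be told apart.

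**Figure D2:**
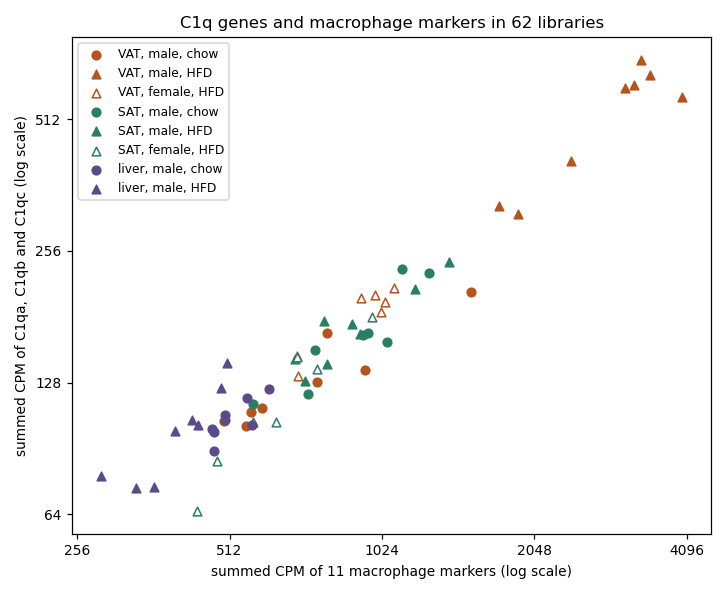
Summed CPM of *C1qa*, *C1qb* and *C1qc* (vertical, log scale) against the summed CPM of 11 macrophage markers (horizontal, log scale) in each of 62 libraries, coloured by tissue, with circles for chow, triangles for HFD and open symbols for females. VAT of males on HFD (312 to 700 CPM of C1q) stood apart from every other library, the highest of which had 241 CPM.

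*Cfd* was the gene that differed most between diets. In VAT of males it ranged from 968 to 3549 CPM on chow (median 2284, n = 8) and from 47.0 to 284 CPM on HFD (median 189, n = 8), a 13.4-fold lower level (log2 -3.74, SE 0.40, adjusted p = 1.45e-05 from edgeR). In SAT it ranged from 1210 to 3854 CPM on chow (median 2680) and from 271 to 622 CPM on HFD (median 459), 5.70-fold lower (log2 -2.51, SE 0.25, adjusted p = 1.19e-05 from edgeR). Chow and HFD libraries did not overlap in either depot. The fall was larger in VAT than in SAT by 1.21 on the log2 scale (interaction -1.21, SE 0.44, adjusted p = 0.0376 from edgeR), and by 2.09 in the WT libraries alone (interaction -2.09). In KO the depots were closer, with mean log2 differences between diets of -3.28 in VAT and -2.99 in SAT. The same differences in WT were -4.35 and -1.89. Whether genotype altered this gap was not tested. Of 10 adipocyte markers, 9 were lower and 1 higher on HFD in VAT, with a median log2 fold change of -0.78. In SAT, 3 were higher and 2 lower, with a median of 0.32. Adjusting for the adipocyte marker score left *Cfd* at -3.09 in VAT and -3.01 in SAT on the log2 scale, past the FDR in both. Adjusting for the macrophage marker score left it at -2.77 in VAT, where it no longer passed (adjusted p = 0.107 from edgeR). In that fit 443 of 17330 genes passed, against 7653 without the score. The macrophage marker sums of the diets did not overlap in VAT, so score and diet can hardly be told apart there.

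In liver, *Cfd* went the other way. In WT males its CPM were 0.410, 1.93, 0 and 0.284 on chow and 9.64, 8.77, 11.6 and 22.3 on HFD. In KO males they were 0, 3.00, 0.517 and 0 on chow and 8.91, 12.7, 9.16 and 5.34 on HFD. Every HFD liver was above every chow liver in both genotypes. The log2 fold change was 3.50 (SE 0.46, adjusted p = 1.07e-05 from edgeR). It rests on 0 to 33 counts per library on chow and 9 to 359 on HFD, and was 4.15 without KO replicate 2 on chow and 4.28 by limma-voom. *Adipoq*, the adipocyte hormone adiponectin, was at 1.02 CPM or less in every liver except 1 KO library on chow, with 2.34 CPM, which was also the chow liver highest in *Cfd*. *Adipoq* summed to 2 counts on chow and 22 on HFD in WT livers, and to 25 and 7 in KO livers. *Cidec* averaged 61.8 CPM on chow and 20.7 CPM on HFD in WT, and 37.6 and 28.1 CPM in KO. *Fabp4* averaged 8.15 and 7.59 CPM in WT, and 7.25 and 11.2 CPM in KO. *Car3*, a carbonic anhydrase outside the list of 10 adipocyte markers, rose in both genotypes with no overlap between diets. Its mean went from 333 to 3037 CPM in WT and from 589 to 3297 CPM in KO. The part of these genes in the *Cfd* difference was not tested. *Retn* was at 0 in WT livers on chow and at most 0.293 CPM elsewhere. Of the 10 adipocyte markers 5 had enough counts to be tested in liver, 2 of them higher and 2 lower on HFD, and the summed markers ranged from 83.4 to 198 CPM on chow and from 111 to 150 CPM on HFD.

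*C3* rose with HFD in VAT and fell in SAT and liver. In VAT of males it ranged from 393 to 1215 CPM on chow (median 678, n = 8) and from 752 to 1518 CPM on HFD (median 1183, n = 8), and these ranges overlapped (log2 0.73, SE 0.23, adjusted p = 0.0227 from edgeR). In SAT it ranged from 453 to 1183 CPM on chow (median 784) and from 238 to 486 CPM on HFD (median 388), 2.15-fold lower (log2 -1.11, SE 0.15, adjusted p = 7.4e-05 from edgeR). In liver it ranged from 7041 to 13225 CPM on chow (median 9514) and from 6057 to 8551 CPM on HFD (median 7830), a log2 fold change of -0.42 (SE 0.12, adjusted p = 0.0128 from edgeR). The effect of diet differed between the depots by 1.89 (SE 0.29, adjusted p = 4.61e-05 from edgeR). In VAT the call was lost in the WT libraries alone (log2 0.32, adjusted p = 0.483 from edgeR). It was also lost with the epididymis marker score as a covariate (log2 0.42, adjusted p = 0.242 from edgeR). This score averaged 0.34 in KO and 2.18 in WT on chow, and -2.60 and -2.59 on HFD. The call was kept without the libraries high in epididymis markers. The sign turned with the macrophage marker score (-0.40, adjusted p = 0.656 from edgeR). Hepatocyte markers, of which 7 of 9 tested rose and 1 fell in VAT on HFD, summed to between 24.1 and 415 CPM there and to between 472 and 3403 CPM on chow. Their mean log2 CPM on chow was -1.12 in KO, where *Ttr*, *Hamp* and *Fgb* had no counts, and 0.53 in WT. These rises thus start near the floor. Of the stromal markers 6 of 8 rose (median 1.30), of the mesothelial markers 5 of 6 fell (median -1.03) and of the endothelial markers 3 of 4 fell (median -0.67). The part of these last 4 lists in the diet difference of *C3* was not tested.

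*C2*, the protease that C1 cleaves next to C4, fell with HFD in both depots. In VAT of males it ranged from 9.64 to 42.2 CPM on chow (median 19.4, n = 8) and from 6.55 to 12.0 CPM on HFD (median 8.43, n = 8), 2.61-fold lower (log2 -1.38, SE 0.26, adjusted p = 0.000846 from edgeR). In SAT it ranged from 10.1 to 20.1 CPM on chow (median 11.9) and from 5.50 to 10.1 CPM on HFD (median 6.59), 1.87-fold lower (log2 -0.90, SE 0.11, adjusted p = 5.03e-05 from edgeR). The diets overlapped in VAT and, narrowly, did not in SAT. In VAT the log2 fold change was -2.07 in the WT libraries alone, -2.20 after adjusting for the macrophage score and -0.91 after adjusting for the adipocyte score, and it passed in each. The difference between depots was -0.45 (95% interval -1.0 to 0.10) and did not pass, whereas in the WT libraries alone it was -1.23 (adjusted p = 0.0155). In liver *C2* ranged from 18.3 to 35.9 CPM on chow and from 22.4 to 35.8 CPM on HFD and did not pass (log2 0.10, 95% interval -0.10 to 0.31).

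*Cfb* and *C4b* differed less. *Cfb* was higher on HFD in all 3 tissues, from 1.15 ± 0.495 to 2.35 ± 0.557 CPM in SAT, from 1.32 ± 0.602 to 2.02 ± 0.337 CPM in VAT and from 5.29 ± 1.62 to 7.75 ± 2.07 CPM in liver (SD, n = 8). The log2 fold changes were 0.98 (SE 0.25, adjusted p = 0.00518) in SAT, 0.58 (SE 0.22, adjusted p = 0.053) in VAT and 0.48 (SE 0.15, adjusted p = 0.019) in liver by edgeR, and the diets overlapped in each tissue. The SAT call was lost without the 6 libraries high in lymph node markers (log2 0.47, adjusted p = 0.350 from edgeR). That fit takes its diet difference from KO libraries only, since all WT libraries on chow were left out. Over all SAT libraries, the mean log2 difference was 0.68 in KO and 1.42 in WT. The VAT call was lost without the 2 libraries high in epididymis markers (log2 0.48, adjusted p = 0.131 from edgeR). The liver call was lost in the WT libraries alone (log2 0.41, adjusted p = 0.215) and with ribosomal RNA as a covariate (log2 0.36, adjusted p = 0.139). Leaving out WT replicate 3 of VAT on chow or WT replicate 2 of VAT on HFD also ended the VAT call. *C4b* fell in SAT (log2 -0.43, SE 0.18, adjusted p = 0.0541 from edgeR), from 764 ± 260 to 574 ± 51.5 CPM (SD, n = 8), a call lost without WT replicate 4 of SAT on chow (log2 -0.29). It did not pass in VAT (0.15, 95% interval -0.22 to 0.52) or in liver (0.01, -0.19 to 0.22). The depot interaction of *C4b* passed narrowly (0.59, adjusted p = 0.0913) and was lost in 7 of 10 alternatives and in 20 of 32 fits with 1 library left out. In SAT, 5 of the 8 complement genes passed, 1 higher and 4 lower, where 58.0% of 17292 genes did, 28.5% higher and 29.6% lower. In liver, 3 passed, 2 higher and 1 lower, where 40.8% of 14476 genes did, 20.6% higher and 20.2% lower.

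**Figure D3:**
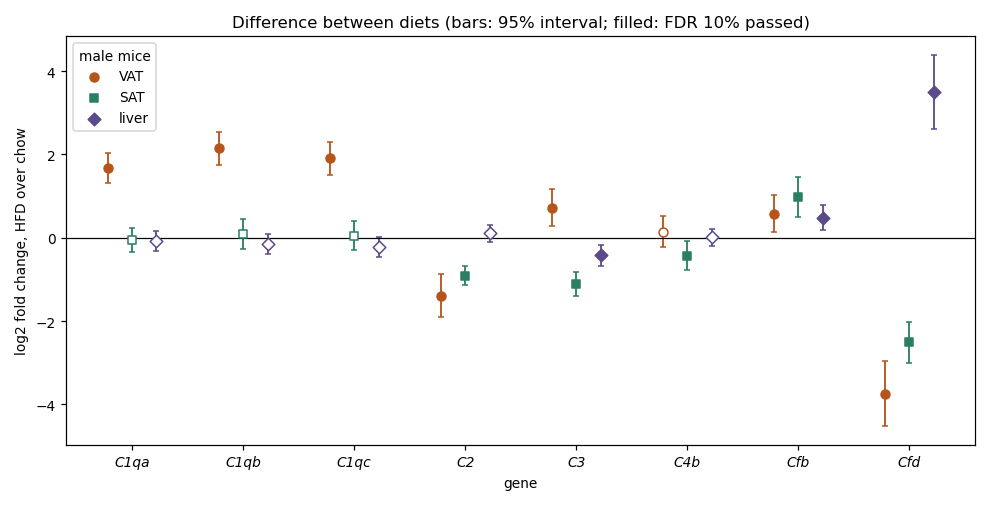
Log2 fold change of HFD over chow (vertical) for each of the 8 genes in VAT, SAT and liver of males (n = 8 libraries per diet), with 95% intervals; filled symbols passed an FDR of 10% in edgeR's test and open symbols did not. The C1q genes passed the test in VAT and not in SAT or liver, and *Cfd* fell in both depots (-3.74 and -2.51) and rose in liver (3.50).

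The rest of the system was followed in 48 other complement genes. Between 36 and 47 of all 56 complement genes had a mean of at least 1 TPM in a tissue. *Serping1*, the C1 inhibitor, was the highest of the other genes in SAT at 277 ± 85.7 TPM (SD, n = 23) and in VAT at 339 ± 125 TPM (SD, n = 23), followed by the protease gene *C1s1* and by *Cd59a*, which protects cells from lysis. In liver the highest were *Vtn* at 1353 ± 278 TPM, *Clu* at 482 ± 83.7 TPM and *Serping1* at 437 ± 86.2 TPM (SD, n = 16). In VAT, 17 of 36 tested passed between diets, 13 higher and 4 lower on HFD, with a median log2 fold change of 0.52, where 44.2% of all genes passed. Of 9 receptor genes 8 rose, with a median of 2.09, among them *Itgax* (3.99, SE 0.40), which pairs with *Itgb2* (2.69, SE 0.34) in a receptor for cleaved C3, the anaphylatoxin receptor *C3ar1* (2.87, SE 0.32) and *C5ar2* (2.43, SE 0.28). The regulator *Cd46* fell by 1.03 (SE 0.13) on the log2 scale.

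In SAT, 24 of 37 tested passed between diets, 15 higher and 9 lower, with a median of 0.24, where 58.0% of all genes passed. The 5 with the smallest p were *Cd93* (1.12, SE 0.15), *Clu* (-2.24, SE 0.37), *Cd59a* (2.05, SE 0.34), the terminal component *C7* (-1.32, SE 0.28) and *C8g* (1.37, SE 0.31). The 9 lymph node markers tested were all lower on HFD in SAT, with a median of -3.69, and the receptor *Cr2*, a B cell gene, was at -3.88 (SE 1.29). In liver, 26 of 43 passed, 9 higher and 17 lower, with a median of -0.07, where 40.8% of all genes passed. Of 7 terminal components 4 were lower and 1 higher, the lower ones including *C8b* (-1.14, SE 0.12) and *C6* (-1.01, SE 0.14). *Cfhr2* (-0.50, SE 0.09) also fell. *C4a*, the copy that shares sequence with *C4b*, rose from 9.90 ± 2.79 to 94.5 ± 64.7 CPM (SD, n = 8; log2 3.13, SE 0.34), while *C4b* stood at 1710 ± 367 and 1794 ± 236 CPM.

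VAT was compared with SAT in the 32 male libraries with diet and genotype as covariates. Of the 8 genes 6 passed, 5 higher and 1 lower in VAT, where 35.1% of 18561 genes passed, 20.4% higher and 14.7% lower. *C3* was 1.74 times higher in VAT (log2 0.80, SE 0.23), *C2* 1.50 times (log2 0.59, SE 0.14), and *C1qa*, *C1qb* and *C1qc* 1.42, 1.70 and 1.55 times, while *Cfd* was 1.68 times lower (log2 -0.75, SE 0.24). *C4b* (-0.20, 95% interval -0.47 to 0.08) and *Cfb* (-0.002, -0.38 to 0.37) did not pass. In the 16 WT libraries alone 0 of the 8 genes passed and the log2 differences of these 6 genes kept their sign. The 3 C1q genes, *C3* and *Cfd* are among those whose effect of diet differed between depots. On chow, *C1qa*, *C1qb*, *C1qc* and *C3* averaged 41.6, 47.8, 43.9 and 696 CPM in VAT. In SAT on chow they averaged 54.4, 58.0, 54.6 and 773 CPM, so their higher mean in VAT was present on HFD only. *Cfd* on chow averaged 2346 CPM in VAT and 2564 CPM in SAT, with overlap. The call of *C1qa* (adjusted p = 0.0691 from edgeR) ended without any 1 of the 8 SAT libraries on HFD, or without KO replicate 3 or WT replicate 2 of VAT on HFD (log2 0.44 to 0.57 over all libraries left out).

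Females and males on HFD differed in *Cfd* and the C1q genes. In VAT, *Cfd* ranged from 638 to 1778 CPM in 7 females and from 47.0 to 284 CPM in 8 males, 5.71-fold higher in females (log2 2.51, SE 0.36, adjusted p = 1e-04 from edgeR). In SAT it ranged from 816 to 2058 CPM in females and from 271 to 622 CPM in males, 2.78-fold higher (log2 1.47, SE 0.15, adjusted p = 5.48e-06 from edgeR). No female overlapped with a male in either depot. *C1qa*, *C1qb* and *C1qc* were 2.5, 3.31 and 3.03 times lower in VAT of females, again without overlap, and *C2* was higher (log2 0.53, SE 0.21, adjusted p = 0.0723 from edgeR). In VAT 5 of the 8 genes passed, 2 higher and 3 lower in females, where 39.5% of 17538 genes passed, 19.5% higher and 20.0% lower.

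In SAT the C1q genes were lower in females by smaller amounts, with log2 differences of -0.49, -0.56 and -0.57, as was *C4b* (-0.50, SE 0.14, adjusted p = 0.0165 from edgeR). Here 5 of the 8 genes passed, 1 higher and 4 lower, where 26.6% of 17681 genes passed, 13.5% higher and 13.1% lower. In the WT libraries alone *Cfd* was the 1 gene of the 8 that passed in SAT, and *C2* no longer passed in VAT (log2 0.77, adjusted p = 0.178 from edgeR). The VAT call of *C2* also ended without KO or WT replicate 2 of females, or KO replicates 3 or 4 or WT replicate 3 of males (log2 0.31 to 0.61 over all libraries left out), and those of *C1qa* and *C1qb* in SAT ended without 7 and 6 of the 15 libraries. *C3* did not pass in either depot (0.02, 95% interval -0.28 to 0.32 in VAT, and 0.31, 0.03 to 0.59 in SAT). In VAT of females 10 of 11 macrophage markers were lower than in males, with a median of -1.70, and 9 of 10 adipocyte markers were higher, with a median of 0.87. In VAT of females 4 of 4 endothelial markers were higher and 3 of 8 stromal markers lower. In SAT 7 of the macrophage markers were lower and 1 higher, with a median of -0.55. Mammary epithelium markers were higher in SAT of females in 6 of 6 tested (median 6.89), endothelial markers lower in 4 of 4 (median -0.65) and hepatocyte markers lower in 7 of 9 tested (median -2.39). The part of these markers in the values of *Cfd* and the C1q genes was not tested for the sexes.

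Among the genotype differences, *C2* in SAT led to the choice of these genes, and its values there are a description. In males on HFD, *C2* was at 5.53, 5.65, 5.93 and 5.50 CPM in KO and at 10.1, 7.71, 7.26 and 9.69 CPM in WT. In females on HFD, it was at 4.06, 5.99, 4.10 and 6.08 CPM in KO and at 9.44, 11.2 and 9.12 CPM in WT. In males on chow, it was at 11.2, 12.4, 10.1 and 11.5 CPM in KO and at 13.6, 14.6, 11.4 and 20.1 CPM in WT. Every KO library was below every WT library on HFD in both sexes, and the genotypes overlapped on chow. Over the 23 SAT libraries, *C2* was 1.57-fold lower in KO (log2 -0.65, SE 0.11), and 4.33% of 18366 genes passed the FDR in this comparison, 3.45% higher and 0.888% lower. Without 7 libraries high in lymph node markers the difference was -0.85. These 7 included all WT libraries on chow, so that fit compares the genotypes on HFD only. Over all SAT libraries, the mean log2 difference was -0.37 in males on chow, -0.60 in males on HFD and -0.98 in females on HFD.

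The other genes in SAT are given as differences of KO from WT in the same fit. *C3* was at -0.46 (SE 0.13), with a mean of 309 CPM in KO and 415 CPM in WT males on HFD, 635 and 911 CPM in males on chow, and 381 and 496 CPM in females, and the genotypes overlapped in each group. *Cfd* was at -0.29 (SE 0.19), being lower in KO males on HFD (424, 271, 432 and 298 CPM against 487, 622, 566 and 622 CPM in WT, no overlap) and higher on average in KO males on chow (2865 against 2264 CPM, overlapping). *Cfb* was also lower in KO males on HFD without overlap (1.93 against 2.78 CPM, from 39 to 57 and 66 to 95 counts), and not on average in the other groups. The share of all genes without overlap between genotypes in these groups was not counted. *C4b* (-0.13, SE 0.15), *Cfb* (-0.09, SE 0.21), *C1qa* (-0.01, SE 0.15), *C1qb* (0.04, SE 0.17) and *C1qc* (0.08, SE 0.16) were within 1 standard error of 0.

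In VAT and liver, where the choice of genes used no value, the genotypes were tested. In VAT 0 of the 8 genes passed in 23 libraries, with 0 of them at an unadjusted p under 0.05. Of 18975 genes 1 passed, 0.00527%, and 1598 had an unadjusted p under 0.05. *C2* in VAT had a log2 difference of -0.27 (95% interval -0.70 to 0.17, adjusted p = 0.747 from edgeR). Its CPM in males on chow were 9.64, 17.9, 20.9 and 14.3 in KO and 30.6, 16.8, 35.1 and 42.2 in WT, and in males on HFD 12.0, 10.7, 8.13 and 8.47 in KO and 8.47, 8.40, 6.55 and 7.0 in WT. KO was thus lower on average on chow and higher on average on HFD, with overlap in both, and this difference between diets was not tested. The other VAT differences ranged from -0.29 for *Cfd* (95% interval -0.83 to 0.25) to 0.25 for *C1qa* (-0.01 to 0.51).

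In liver 0 of the 8 genes and 0 of 14476 genes passed (0%), with 1416 genes at an unadjusted p under 0.05 by edgeR. *C2* was the 1 complement gene among these (log2 -0.26, 95% interval -0.47 to -0.05, unadjusted p = 0.0243, adjusted p = 0.434), at a mean of 22.9 CPM in KO and 30.3 CPM in WT on chow, and 27.2 and 31.7 CPM on HFD, with overlap in both diets. The other genes lay between -0.23 for *Cfd* and -0.06 for *Cfb*. DESeq2 and limma-voom also called 0 of the 8 genes in VAT and in liver.

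**Figure D4:**
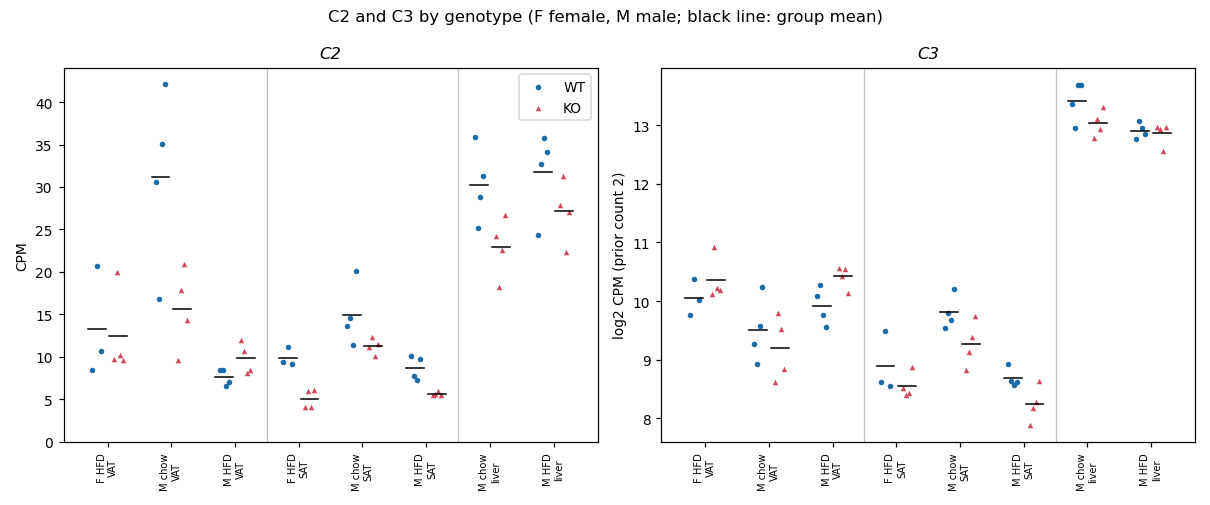
*C2* in CPM (left, linear scale from 0) and *C3* in log2 CPM (right, prior count 2) in each library, by sex, diet and tissue, with WT as blue circles, KO as red triangles and the group mean as a black line. In SAT on HFD the KO libraries had 4.06 to 6.08 CPM of *C2* and the WT libraries 7.26 to 11.2 CPM.

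The genes with the most similar profile over the 16 group means were found among 11494 genes, by the mean absolute difference of centred log2 CPM. For *C1qa* they were *C1qc* (0.09), *Csf1r* (0.11), the receptor of a macrophage growth factor, and *C1qb* (0.13). For *C1qb* they were *C1qc* (0.07), *C1qa* (0.13) and *Cybb* (0.14), a subunit of the phagocyte oxidase, and for *C1qc* they were *C1qb*, *C1qa* and *Csf1r* (0.12). The other genes had no member of this set among their closest. The 3 closest to *C3* included *Cpt1a* (0.43) and *Stard5* (0.43), and the 3 closest to *Cfb* included *Dera* (0.15) and *Tmem14c* (0.17). *C4b* was nearest to *Rnf169* (0.19) and *C2* to *2810004N23Rik* (0.28). *Cfd*, whose group means spanned 12.9 on the log2 scale, had no close match, the nearest being *B3galt2* (1.05).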

How the data were processed

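RNA from VAT, SAT and liver was sequenced in 62 libraries. Reads were aligned by the authors to the mouse genome GRCm38 using STAR and Gencode M11 gene models. What they deposited is raw counts of reads per gene, not normalized. The methods name STAR 2.6 and the submitters' processing notes 2.5.3a, and which strand column was kept is not given in the sources used here. Library labels gave the groups.

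The 8 genes, the lists of other complement genes and markers, and the tests were chosen with earlier results of these data known. Of 48795 genes, 48349 matched a symbol in GENCODE M21. Tests used edgeR 4.0.16 (R 4.3.3), with TMM normalization, filterByExpr on groups, quasi-likelihood tests, and Benjamini-Hochberg adjustment over all genes tested with an FDR of 10%. The standard error was the log2 fold change divided by the square root of F, and intervals are 1.96 standard errors to each side. CPM used TMM library sizes, log2 CPM a prior count of 2, and TPM merged exon lengths, without nuclear ribosomal RNA. Low levels rest on few counts, so they are less precise.

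Diets were compared with genotype as a covariate, genotypes with sex and diet, depots and liver with genotype and diet, and sexes with genotype. Among other complement genes, those named are the 5 with the smallest p between diets in each tissue, the 3 with the highest TPM in each tissue, and the 3 most similar profiles per gene. Some genes that these rules name are not reported here. *Cr2* was named after its values were seen. Marker lists covered macrophages, lipid-associated macrophages, adipocytes, hepatocytes, stroma, mesothelium, endothelium, mammary epithelium, lymph node and epididymis.

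Alternatives were DESeq2 size factors, upper-quartile normalization, dropping the filter on low counts, requiring 10 counts or more in each library, DESeq2 1.42.0, limma-voom (limma 3.58.1), an FDR of 5%, marker scores and the ribosomal RNA share as covariates, WT or male libraries alone, without 2 libraries of another flow cell, and each library left out. Lane as a factor, the epididymis score, and leaving out libraries high in epididymis or lymph node markers were chosen after seeing the data. The tests were checked on simulated counts.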

Additional observations from a re-analysis of the deposited data

Results flagged for a closer look

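Single libraries stood apart within their group of 4 by Dixon's test in 5 of 112 groups of gene and condition, where about 1 in 20 is flagged by chance. *C1qb* was at 43.8 CPM in KO replicate 3 of male liver on chow (others 32.6 to 33.8), and *C1qc* at 36.9 CPM in KO replicate 1 of male SAT on chow (others 50.3 to 52.9). KO replicate 2 of female VAT on HFD was high in both *C2* (20.0 CPM, others 9.68 to 10.3) and *C3* (1949 CPM, others 1111 to 1203). *C3* was at 6057 CPM in KO replicate 3 of male liver on HFD (others 7783 to 8056), the library in which ribosomal RNA took 75.4% of the counts.

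The effect of diet differed between VAT and SAT, by edgeR's interaction test, for *C1qa* (1.78 on the log2 scale), *C1qb* (2.09), *C1qc* (1.89), *C3* (1.89), *C4b* (0.59) and *Cfd* (-1.21).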

How the results depend on the processing

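Of 868 refits of single genes under other settings, 794 kept direction and call, 44 lost and 7 gained the call, and 23 changed sign, of which 2 were of a called gene. Of 1832 fits with 1 library left out, 1722 kept both, 51 lost and 11 gained the call, and 48 changed sign, of which 0 were of a called gene. The cause was not tested in any of these.

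Between diets in VAT, the macrophage marker score, which itself separates the diets, left 1 of 8 genes called and turned *C3* (-0.40), *Cfb* (-0.39) and *C4b* (-0.36). WT libraries alone turned *C4b* in VAT (-0.15) and *C1qb* (-0.25) and *C1qc* (-0.35) in SAT. *C1qa* in SAT turned with the adipocyte score (0.14), the lymph node score (0.079) and without lymph-node-high libraries (0.27). The last of these fits takes its diet difference from KO libraries only. In liver, 1 gene was called with at least 10 counts in every library, where *Cfb* and *Cfd* were not tested, and *C4b* turned with upper-quartile normalization (-0.0085) and in WT (-0.012), and *C1qa* with ribosomal RNA as a covariate (0.022) and in WT (0.11). Between genotypes, *C4b* in VAT turned with the macrophage score (-0.051), in males (-0.12) and with lane (-0.025), and in liver *Cfd* with DESeq2 (0.016) and *Cfb* with ribosomal RNA (0.0024). Between depots, WT libraries alone left 0 genes called, and *Cfb* turned with DESeq2 (0.00026), limma-voom (0.016), ribosomal RNA (0.025) and without the other flow cell (0.031). Between sexes in SAT, 3 genes were called at an FDR of 5%, 3 with ribosomal RNA and 1 in WT, and *Cfb* in VAT turned without the other flow cell (-0.0070).

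With 1 library left out, between 3 and 6 genes were called between sexes in SAT (3 without KO replicate 3 or WT replicate 1 of females, or KO replicate 2 or WT replicate 3 of males). The ranges that crossed 0 were, in SAT between diets, *C1qa* (-0.15 to 0.0040), *C1qb* (-0.012 to 0.19) and *C1qc* (-0.033 to 0.15), *C4b* in liver between diets (-0.039 to 0.096), *C4b* in VAT between genotypes (-0.046 to 0.10), *Cfb* (-0.12 to 0.021) and *Cfd* (-0.61 to 0.10) in liver between genotypes, *Cfb* between depots (-0.11 to 0.080), and between sexes *C3* (-0.093 to 0.071) and *Cfb* (-0.0070 to 0.089) in VAT and *C2* in SAT (-0.015 to 0.10). No paired analysis was possible because the labels carry no replicate numbers that link libraries across groups. Counts limit *Cfb*, with 4 to 196 reads per library, and *Cfd* in liver most.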
